A study of Mus musculus with 32 samples.

Results

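The RNA of donor CD4 T cells taken 6 days after transfer into allogeneic hosts was compared with that of CD4 T cells taken before transfer. The comparison was chosen by its sample labels, as the 4 CD4 libraries of untreated allogeneic recipients and the 2 CD4 libraries of day 0, which makes 6 of the 31 RNA libraries of the series. All donors were C57Bl6 mice, and the allogeneic recipients were Balb/c mice, which differ from the donors at the major histocompatibility genes. The model is one of graft-versus-host disease (GVHD), in which donor T cells attack the tissues of the host. The allogeneic group carried the label of untreated GVHD, and the day 0 group carried the label of cells before transplantation. Both groups came from spleen and lymph nodes, and the titles and the receptor tables give day 6, while the design text of the series gives day 8. The other groups used here were 3 CD4 libraries of untreated syngeneic controls at day 6, 4 CD8 libraries of untreated allogeneic recipients at day 6 and 2 CD8 libraries of day 0. Libraries carry the prefix JL019 or JL027, which the receptor tables list as the experiment, and a replicate number. The labels do not say that replicates came from separate animals, so p-values measure the spread between these libraries.

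A CD4 T cell that meets its antigen leaves the naive state, in which it recirculates through lymph nodes, divides and becomes an effector cell. Effector CD4 cells secrete cytokines, change their homing receptors and raise glycolysis, and after strong or lasting stimulation they also display inhibitory receptors such as PD-1 and TIM-3. In acute GVHD donor CD4 cells respond to the foreign histocompatibility molecules of the host, mainly as T helper 1 cells that make interferon gamma.

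The RNA values were normalised counts deposited by the authors, and they are not divided by gene length, so levels were compared between libraries and not between genes. Totals were 21420000 to 22774000 at day 0 and 25175000 to 27948000 in the allogeneic libraries, and mitochondrial transcripts made up 1.01 to 1.63% of them. Across genes, log2 values correlated at r = 0.976 between the day 0 libraries, at 0.966 to 0.974 within the allogeneic group and at 0.895 to 0.909 between the groups. The label of the sorted cells was checked on markers. Cd4 was at 14693 and 14778 at day 0 and at 16706 to 21481 in the allogeneic libraries, whereas Cd8a was at 16.4 to 54.5 in all 6. Cd8b1 was at 837 and 833 at day 0 and at 329 to 570 in the allogeneic libraries. Its mean in CD8 cells at day 0 was 59219. The syngeneic CD4 library JL019-2 stood apart, with a myeloid marker sum of 3746800, and it enters only the shared estimate of the spread and the comparison with syngeneic hosts. The allogeneic libraries JL027-1 and JL027-2 shared 530 T-cell receptor beta (TRB) clonotypes, while the other 5 pairs of allogeneic libraries shared 79 to 126. Those shared clonotypes held 45.4% of the TRB reads of JL027-1 and 22.9% of those of JL027-2. Of the alpha chain (TRA), that pair shared 427 clonotypes and the other pairs 151 to 195. The deposited TRA total of JL027-1 was 30842 reads, the sum of the 17270 listed for it and the 13572 listed for JL027-2, while the other 5 totals matched their listed reads. Mixing of these 2 receptor libraries was not tested. Values without each of these libraries are given below.

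The change between day 0 and day 6 was broad. Of 16741 genes tested, 4013 were called, which is 24.0% at a Benjamini-Hochberg adjusted p under 0.05 in limma on log2(value + 1). Of these, 2405 (14.4% of all genes) were higher and 1608 (9.61%) were lower in allogeneic hosts, and 3178 changed by at least 2-fold. At least 16-fold changes were found for 213 higher and 140 lower genes. The median log2 change over all genes was -0.04, with quartiles at -0.60 and 0.57. The 4 allogeneic and 2 day 0 libraries did not overlap for 9218 genes, 55.1% of those tested, so a lack of overlap alone says little here. The number of calls rested on the 2 day 0 libraries: without the day 0 library JL019 it was 2252, and without JL027 it was 2178. When only the 6 libraries compared set the spread it was 6636, and none of the 4013 genes was called in the opposite direction under any of the 20 alternative settings run. In bulk RNA, fewer cells of a type and less RNA per cell cannot be told apart.

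**Figure D1:**
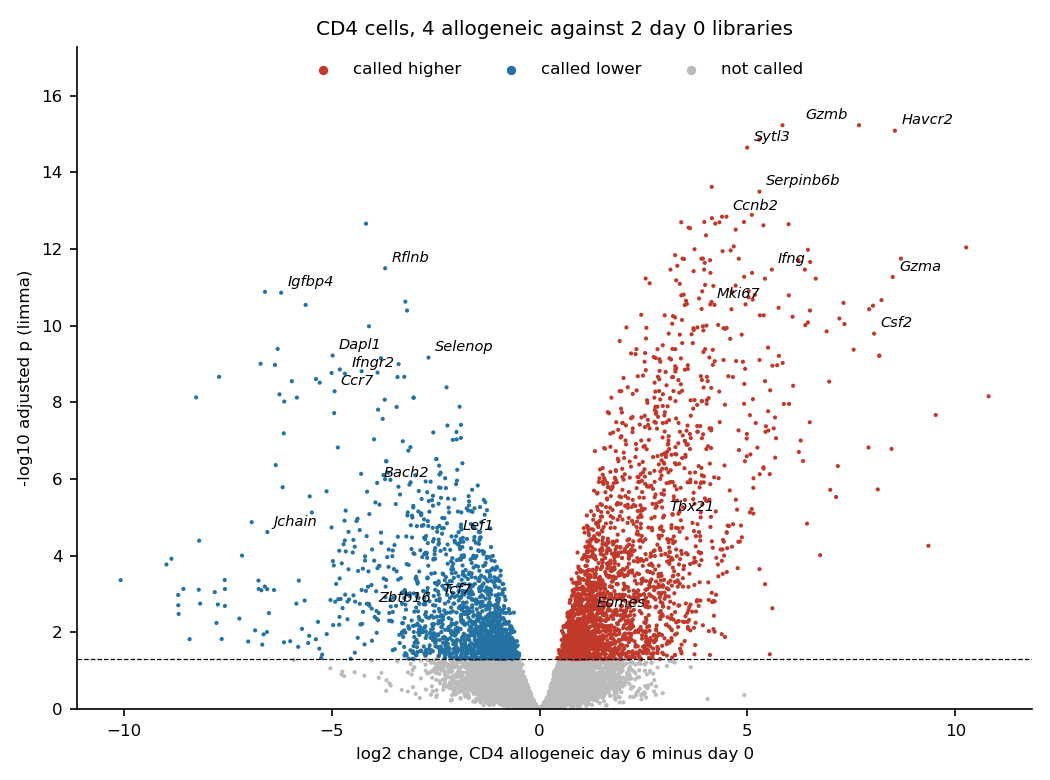
Each point is 1 of the 16741 genes, placed by its log2 change from day 0 to allogeneic day 6 (x axis) and by minus log10 of the limma adjusted p (y axis), with the dashed line at 0.05. Red points are the 2405 genes called higher and blue points the 1608 called lower, with Gzmb and Havcr2 at the upper right and Rflnb and Igfbp4 near the top on the left.

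Among the genes with the lowest p, the 10 rising were Gzmb, Smpdl3b, Havcr2, Ncald, Sytl3, Cdca5, Serpinb6b, Fhl2, Ccnb2 and Pimreg. They cover a granzyme (Gzmb), an inhibitory receptor (Havcr2, which encodes TIM-3), a granule-tethering protein (Sytl3), a protease inhibitor (Serpinb6b) and genes of mitosis (Cdca5, Ccnb2, Pimreg). Havcr2 was at 6.51 and 19.1 at day 0, and at 3674, 4280, 5617 and 5043 in the allogeneic libraries, given here and below in the order JL019, JL027 and then JL019-1, JL019-2, JL027-1, JL027-2. Its log2 change was 8.55 ± 0.35 (SE, n = 4 and 2, limma adjusted p = 8.2e-16), and errors below are SEs of the same fit unless stated. Smpdl3b, which encodes a membrane phosphodiesterase, was at 23.4 and 37.5 at day 0 and at 1508 to 1975 after transfer. Among the 10 falling genes with the lowest p were Rflnb, Atp1b1, Igfbp4, Rnf122, Ampd1, Cd55, Xkrx, Dapl1 and Selenop. Atp1b1, a subunit of the sodium-potassium pump, was at 2463 and 2595 at day 0 and at 22.7 to 31.9 after transfer, a change of -6.60 ± 0.46. None of these 20 genes had overlapping groups, which the rule that chose them required.

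Genes of the naive state and of lymph node homing fell. Of 20 in the table, 13 were called lower and none higher, with a median log2 change of -1.98, and the 13 calls held without either day 0 library. Ccr7, the chemokine receptor that guides naive cells to T-cell zones, was at 36622 and 34190 at day 0 and at 1177, 1048, 1036 and 1416 in allogeneic hosts. The allogeneic libraries were all far below both day 0 libraries, with a change of -4.93 ± 0.47 (adjusted p = 5.1e-09). The transcription factors of the naive state also fell: Bach2 by 3.91 ± 0.51, Tcf7 by 2.48 ± 0.56 and Lef1 by 2.01 ± 0.33. Igfbp4, a growth factor binding protein used as a naive marker, was at 15916 and 14214 at day 0 and at 119 to 305 after transfer. Dapl1 fell by 4.98 ± 0.42. Other genes of the list were not called: Il7r, the receptor chain for the survival cytokine IL-7, changed by 0.39 ± 0.44 (adjusted p = 0.60), the egress receptor S1pr1 by -0.79 ± 0.44 (0.22) and its regulator Klf2 by -0.75 ± 0.34 (0.12).

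Transcription factors of effector and helper lineages rose, with 18 of 24 called higher and 3 lower at a median of 1.87. Without either day 0 library, 13 were called higher. Bhlhe40, a factor of cytokine-producing T helper cells, was at 268 and 275 at day 0 and at 28721, 27601, 20181 and 23680 in allogeneic hosts, which is a change of 6.51 ± 0.41 (adjusted p = 2.2e-12). Tbx21, the T-bet gene of T helper 1 cells, was at 566 and 535 and then at 4927, 4672, 3434 and 4415, a change of 2.97 ± 0.45. Both genes showed no overlap between the groups. Gata3, the T helper 2 regulator, rose as well, by 1.80 ± 0.43, although its call was lost without the day 0 library JL027. Nfil3 rose by 3.95 ± 0.52, Prdm1, which encodes the effector repressor Blimp-1, by 3.22 ± 0.31, and Id2 by 2.61 ± 0.28. Eomes was at 139 and 172 at day 0 and at 316 to 431 after transfer, a rise of 1.22 ± 0.30 that was not called without the day 0 library JL019. Id3, an antagonist of E proteins, fell by 2.62 ± 0.34. Bcl6, the regulator of follicular helper cells, changed by -0.68 ± 0.46 and was not called (adjusted p = 0.33).

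**Figure D2:**
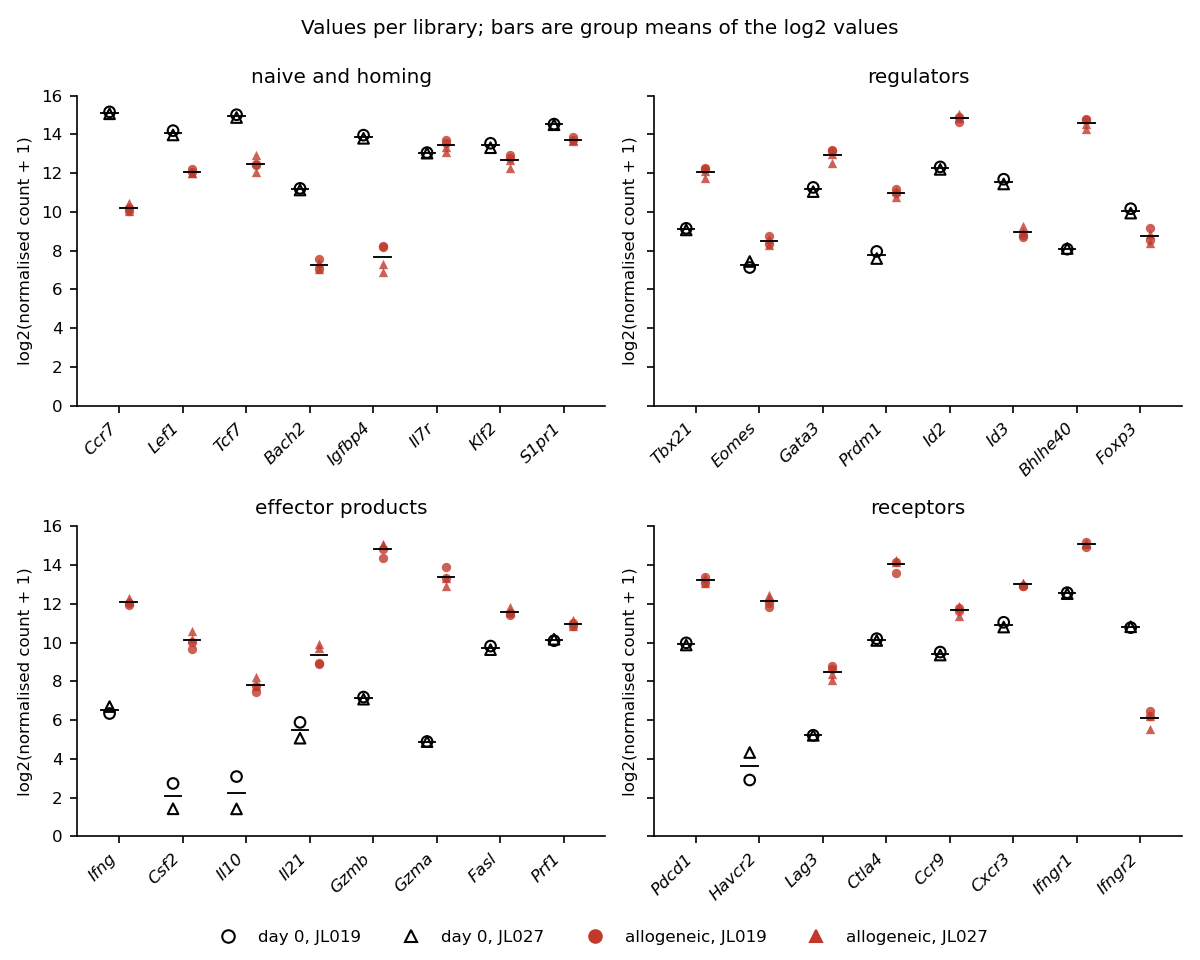
Each symbol is the log2(normalised count + 1) of 1 gene in 1 library, open black for the 2 day 0 libraries and red for the 4 allogeneic libraries, with circles for JL019, triangles for JL027 and bars at group means. Ccr7, Bach2 and Igfbp4 fall without overlap, Ifng, Csf2, Gzmb and Havcr2 rise without overlap, and Ifngr1 and Ifngr2 move in opposite directions.

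Cytokine genes of several helper types rose together. Of 18 in the table, 11 were called higher and 1 lower, with a median of 2.40, and 10 were higher without either day 0 library. Ifng, the interferon gamma gene, was at 80.1 and 103 at day 0 and at 3919, 4203, 5070 and 4537 after transfer, a change of 5.59 ± 0.36 (adjusted p = 3.4e-12). Csf2, which encodes the myeloid growth factor GM-CSF, was at 5.64 and 1.68 and then at 824, 1045, 1528 and 1176, which gives 8.05 ± 0.64. Il10, a suppressive cytokine, rose by 5.55 ± 0.53, Il21, a helper cytokine for B cells, by 3.89 ± 0.68 and Il4, the T helper 2 cytokine, by 2.93 ± 0.52. Il3, a growth factor of blood cell precursors, was listed at 0 in both day 0 libraries and at 64.0, 76.5, 344 and 249 in the allogeneic libraries, higher in the JL027 pair than in the JL019 pair. Il2, the T-cell growth factor, was at 22.5 and 27.7 at day 0 and at 50.3, 63.1, 181 and 134 after transfer. Its rise of 1.87 ± 0.65 had an adjusted p of 0.035 and was not called without either day 0 library or without JL027-1 or JL027-2. Lta, which encodes lymphotoxin alpha, fell by 2.23 ± 0.34. Among 9 chemokine genes, 5 were called higher and none lower. Ccl1 was at 13.3 and 4.60 at day 0 and at 1420 to 4152 after transfer, Ccl3 rose by 7.21 ± 0.55 and Ccl4 by 6.45 ± 0.39, whereas Ccl5 changed by -0.46 ± 0.56 and Xcl1 by -0.65 ± 0.56, neither called.

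Cytotoxicity genes, which here cover granule proteins, protease inhibitors and surface receptors, rose in these CD4 cells. They are best known from CD8 and NK cells. Of 22 in the table, 18 were called higher and none lower, with a median of 3.37, and the count was 18 without any of the 6 libraries. Gzmb, the granzyme that activates caspases in target cells, was at 145 and 135 at day 0 and at 29286, 20943, 33256 and 34407 after transfer, a change of 7.68 ± 0.30 (adjusted p = 5.9e-16). Gzma, another granzyme, was at 28.8 and 28.7 and then at 15512, 10399, 10513 and 7781, a change of 8.49 ± 0.56. All 4 allogeneic libraries were high for both. Nkg7, a granule membrane protein, rose by 4.13 ± 0.39, Gzmk by 4.08 ± 0.35 and Fasl, the ligand of the death receptor Fas, by 1.87 ± 0.33. Prf1, which encodes the pore protein perforin, was at 1098 and 1155 at day 0 and at 1865 to 2299 after transfer. It did not pass the test at 0.85 ± 0.32 (adjusted p = 0.056). Serpinb6b rose by 5.29 ± 0.26. Of the 9 NK cell markers, Gzma and the receptor gene Klri2 were called higher and none lower, with 1 higher without the day 0 library JL027. Klri2 was at 14.9 and 9.97 at day 0 and at 84.2 to 126 after transfer, and Klre1 was above day 0 without overlap but not called (1.69 ± 0.68). The defining gene Ncr1 was at 32.7 and 25.2 at day 0 and at 3.98 to 10.5 after transfer, and was not called (adjusted p = 0.070).

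Inhibitory receptors rose beside costimulatory ones. Of 15 inhibitory receptor genes, 9 were called higher and 1 lower, with a median of 1.98. Pdcd1, which encodes PD-1, was at 1016 and 941 at day 0 and at 8702, 10570, 8619 and 10422 after transfer, a change of 3.28 ± 0.34 (adjusted p = 2.6e-08). Ctla4, the competitor of CD28 for its ligands, was at 1180 and 1106 and then at 18623, 12479, 19865 and 18521. The allogeneic libraries were above both day 0 libraries for each of these genes. Tigit rose by 5.11 ± 0.34, Ctla4 by 3.90 ± 0.50 and Lag3 by 3.26 ± 0.39. Nt5e, the ectoenzyme CD73, fell by 1.30 ± 0.45 (adjusted p = 0.036), a call lost without either day 0 library, JL027-1 or JL027-2. Of 20 costimulatory genes, 11 were called higher and 1 lower, with 8 higher without either day 0 library. Tnfrsf4, the OX40 receptor, rose by 3.26 ± 0.40 and Tnfrsf9, the 4-1BB receptor, by 2.49 ± 0.31. Cd70, the ligand of CD27, was listed at 0 in both day 0 libraries and was at 244, 209, 288 and 305 after transfer, while Cd27 itself fell by 1.53 ± 0.29. Cd40lg, the ligand through which helper cells activate B cells, changed by 0.13 ± 0.45 and was not called.

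Of 27 chemokine receptor, integrin and migration genes, 16 were called higher, 1 lower and 10 neither way. Cxcr6 was at 4175 and 3761 at day 0 and at 35507, 32281, 43960 and 33944 after transfer, a change of 3.19 ± 0.25 (adjusted p = 8.8e-11). Ccr2 rose by 3.34 ± 0.31, Cxcr3, the T helper 1 homing receptor, by 2.08 ± 0.24 and the activation marker Cd44 by 1.22 ± 0.24. Ccr9, the receptor for homing to the small intestine, was at 730 and 657 and then at 3577, 3190, 3741 and 2694, a change of 2.24 ± 0.38. The collagen-binding integrin Itga2 rose by 4.32 ± 0.41. Ccr6, a T helper 17 homing receptor, fell by 4.59 ± 0.73, from 399 and 362 to 6.30 to 42.3. Itga4, the alpha chain of the gut homing integrin, changed by -0.52 ± 0.30, and Itgae by 0.70 ± 0.42, neither called.

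Cytokine receptors moved in both directions, with 12 of 27 called higher and 5 lower, and with 3 lower without either day 0 library. The receptor for interferon gamma split between its chains. Ifngr1, the ligand-binding chain, was at 6128 and 5909 at day 0 and at 38129, 31599, 35694 and 34834 after transfer, a change of 2.54 ± 0.21 (adjusted p = 5.1e-10). Ifngr2, the signalling chain, was at 1753 and 1806 and then at 88.1, 73.8, 73.6 and 45.6, a change of -4.68 ± 0.42 (1.8e-09). Neither gene had overlapping groups. Il12rb2, the receptor chain that carries the T helper 1 signal of IL-12, was at 123 and 122 at day 0 and at 5760 to 6386 after transfer, and Il12rb1 rose by 3.13 ± 0.55. Il1rl1, the receptor for the alarmin IL-33, rose by 4.89 ± 0.43 and Il18r1 by 2.17 ± 0.28. Il6ra, the IL-6 receptor, was at 5595 and 4809 and then at 148 to 184, a change of -5.00 ± 0.45. Il2rb rose by 2.44 ± 0.44 and Il2ra by 1.49 ± 0.40, the latter not called without either day 0 library. Of 16 JAK-STAT regulators, 4 were called higher and 1 lower, with 2 higher without the day 0 library JL027. The share called over all genes was 24.0%. Socs2 rose by 2.06 ± 0.28 and Pim2 by 1.36 ± 0.28, while Socs1 (0.21 ± 0.33) and Socs3 (-0.35 ± 0.54) were not called.

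Interferon target genes moved in both directions, with the share called over all genes at 24.0%. Of 30 type I interferon-stimulated genes, 10 were called higher and 4 lower, with a median of 0.28, and without a day 0 library 5 or 4 were higher and 1 or 2 lower. Mx1, an antiviral GTPase, rose by 2.26 ± 0.37. Ifi27l2a was at 9002 and 7925 at day 0 and at 27570, 19296, 29963 and 29114 after transfer, a rise of 1.63 ± 0.31. Oasl1 fell by 1.42 ± 0.41, a call lost without either day 0 library. Irf7 changed by -0.06 ± 0.29 and was not called. Among 17 GTPases induced by interferon gamma, 2 were called higher and 2 lower, with a median of 0.05. Without the day 0 library JL019 1 was higher and none lower, and without JL027 1 was higher and 1 lower. Gbp3 rose by 1.71 ± 0.31, while Igtp (0.05 ± 0.26) and Irgm1 (0.05 ± 0.28) were not called although Ifng itself was up in the same libraries.

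The genes of the T-cell receptor complex changed little. Of 26 genes of the complex and its proximal signalling, 2 were called higher and 2 lower, with a median of -0.01. Over all genes, 24.0% were called. Cd3e was at 27196 and 22924 at day 0 and at 19393 to 21364 after transfer (-0.30 ± 0.30, adjusted p = 0.55), and Lck at 46217 and 42536 and then at 38101 to 46399. The called genes are modulators: the adaptor Sla rose by 1.75 ± 0.23, the phosphatase Ptpn22 by 1.47 ± 0.32, and Ubash3b fell by 1.70 ± 0.33. Dgka, the diacylglycerol kinase alpha gene, fell by 1.53 ± 0.43, a call lost without either day 0 library. Of 26 immediate early genes, 9 were called higher and none lower, and 4 were higher without either day 0 library. Myc (-0.42 ± 0.29), Egr2 (-0.27 ± 0.40), Jun (-0.40 ± 0.47) and Nr4a1 (0.92 ± 0.66) were not called, while Nr4a2 rose by 3.15 ± 0.63 and Ier3 by 4.30 ± 0.85.

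Genes of cell division rose in every allogeneic library. All 32 mitotic genes were called higher, with changes from 2.24 to 4.62 and a median of 3.50, and 31 or more were called without any 1 of the 6 libraries. Mki67, the proliferation marker Ki-67, was at 309 and 330 at day 0 and at 5884, 5893, 5226 and 5085 after transfer, a change of 4.10 ± 0.30 (adjusted p = 2.8e-11). Birc5, which encodes survivin, was at 312 and 262 and then at 7207, 5447, 8031 and 7784, a change of 4.62 ± 0.34. The groups were far apart for both. Ccnb2, a mitotic cyclin, rose by 4.50 ± 0.24, Cdk1, the mitotic kinase, by 3.40 ± 0.32 and Top2a, which untangles DNA, by 3.26 ± 0.20. Of 37 DNA replication genes, 30 were called higher and none lower, with a median of 1.85. Rrm2, a subunit of the enzyme that makes deoxynucleotides, was at 808 and 648 and then at 7490, 7986, 11235 and 11856, a change of 3.71 ± 0.24. Tk1 rose by 3.57 ± 0.32, the licensing factor Cdc6 by 2.85 ± 0.26 and the helicase subunit Mcm5 by 1.96 ± 0.34, while its partner Mcm2 was not called at 1.09 ± 0.52.

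Since the replication and the mitotic genes moved together, their promoters were read from RefSeq windows of 300 bases on GRCm38.p6, 250 before to 50 after the start. The table held windows for 30 of the 37 replication genes (36 windows) and 27 of the 32 mitotic genes (29 windows). An E2F motif (TTTGGCGC, TTTCCCGC or TTTCGCGC, both strands) was present in 36.1% of the replication windows, 3.45% of the mitotic windows and 1.84% of all 32851 windows of the table. It was in 3.08% of the windows of the tested genes, near the mitotic share, although the table matched only 11718 of 16741 of these genes. The cell cycle homology region motif (CHR, TTTGAA) was present in 75.9% of the mitotic, 16.7% of the replication and 17.9% of all windows, and CCAAT in 86.2%, 55.6% and 37.4%. Matches of different motifs, or of CCAAT on opposite strands, can overlap. Of the genes called higher, 3 of each list are shown as stretches of 120 bases before the start. They had the most matches within a single such stretch, not over the whole window, and ties went to the lowest p. For the mitotic genes the stretch had to hold a match of each motif. Capitals mark E2F matches for the replication genes, and CHR and CCAAT matches (or their reverse complements) for the mitotic genes. The stretches lie on the minus strand at chr1:128359706-128359825 (Mcm6), chr11:99024259-99024378 (Top2a), chr7:135716448-135716567 (Mki67) and chr10:69352913-69353032 (Cdk1), and on the plus strand at chr8:75109356-75109475 (Mcm5) and chr11:98908013-98908132 (Cdc6). A match is a run of letters and was not tested as a binding site.
Mcm6: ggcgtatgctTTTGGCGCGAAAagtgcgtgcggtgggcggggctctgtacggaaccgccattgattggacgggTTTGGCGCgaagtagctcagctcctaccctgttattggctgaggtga
Mcm5: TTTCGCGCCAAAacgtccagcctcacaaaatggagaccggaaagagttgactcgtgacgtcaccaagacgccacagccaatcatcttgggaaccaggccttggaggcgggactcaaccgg
Cdc6: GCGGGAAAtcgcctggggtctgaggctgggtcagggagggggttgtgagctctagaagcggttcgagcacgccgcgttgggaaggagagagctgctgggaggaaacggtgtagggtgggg
Top2a: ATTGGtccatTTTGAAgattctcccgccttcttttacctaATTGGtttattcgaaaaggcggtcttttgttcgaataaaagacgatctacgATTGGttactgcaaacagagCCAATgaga
Mki67: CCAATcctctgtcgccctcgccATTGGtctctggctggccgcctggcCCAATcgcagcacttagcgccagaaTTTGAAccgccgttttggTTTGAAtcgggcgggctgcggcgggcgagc
Cdk1: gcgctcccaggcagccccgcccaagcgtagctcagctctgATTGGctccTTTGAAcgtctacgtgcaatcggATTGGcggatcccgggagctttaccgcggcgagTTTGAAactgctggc

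Cyclins and inhibitors outside mitosis were mixed, with 8 of 23 called higher and 2 lower. Ccne1, the cyclin of the step into S phase, rose by 2.45 ± 0.18. Cdkn1a, the p21 inhibitor, was at 39.9 and 25.9 at day 0 and at 1120, 878, 913 and 1191 after transfer, a rise of 4.94 ± 0.60. Btg1, an antiproliferative gene of resting lymphocytes, fell by 1.99 ± 0.22, from 45607 and 41434 to 10102 to 11661. Ccnd2 fell by 1.43 ± 0.32, and Cdkn1b, the p27 inhibitor of quiescent cells, was not called at -0.72 ± 0.38.

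Glycolysis genes rose, with 15 of 21 called higher and 1 lower at a median of 1.32. Gapdh was at 18230 and 16372 at day 0 and at 92006, 65901, 82589 and 87279 after transfer, a change of 2.23 ± 0.25 (adjusted p = 6.0e-08). Slc16a3, which encodes a lactate exporter, rose by 3.83 ± 0.47, Hk2 by 3.50 ± 0.49, Ldha by 1.52 ± 0.19 and the glucose transporter Slc2a1 by 1.32 ± 0.30. Pdk1, which restrains pyruvate entry into mitochondria, fell by 2.13 ± 0.39. Of 40 nuclear genes of oxidative phosphorylation, 21 were called higher and none lower, at a median of 0.79. That count was not stable, since it was 7 without the day 0 library JL019, 2 without JL027 and 13 without the allogeneic library JL027-1. Cox5a rose by 1.54 ± 0.36 and held its call without each of the 6. Of 25 sterol and fatty acid synthesis genes, 2 were called higher and 3 lower, at a median of -0.22, beside 24.0% called over all genes. Without the day 0 library JL019 1 was higher and 2 lower, and without JL027 1 was higher and 1 lower. The enzyme genes Sc5d and Elovl6 rose, by 1.20 ± 0.20 and 0.76 ± 0.22, the latter not called without either day 0 library. Scd1 and Msmo1, also enzymes, fell, Scd1 from 10.3 and 41.6 to 3.46 in JL019-1 and to a listed 0 in the other 3, a call lost without the day 0 library JL027, and Msmo1, named after its values were seen, by 0.84 ± 0.25, a call lost without either day 0 library. The synthesis enzyme genes Hmgcs1 (-0.62 ± 0.42), Sqle (-0.04 ± 0.40) and Fasn (-0.46 ± 0.78) were not called. Of 23 genes of amino acid transport and the stress response, 12 were called higher and none lower, with 10 without the day 0 library JL019 and 6 without JL027. Asns, asparagine synthetase, rose by 2.78 ± 0.53, Psat1, of serine synthesis, by 1.92 ± 0.27 and Phgdh by 1.19 ± 0.23. The 83 cytosolic ribosomal protein genes had 4 called higher, 1 lower and a median of 0.06, and without the day 0 library JL019 2 and without JL027 0 were higher.

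Genes of S100 proteins, annexins and galectins were among the strongest rises, with 16 of 18 called higher and 1 lower at a median of 2.22. Lgals3, which encodes galectin-3, was at 187 and 117 at day 0 and at 11547, 8384, 10581 and 10603 after transfer, a change of 6.10 ± 0.57. S100a6 rose by 5.72 ± 0.50, S100a4 by 4.86 ± 0.39 and Anxa2 by 4.67 ± 0.28, and none of these had overlapping groups. Lmna, which encodes lamin A and C, fell by 1.81 ± 0.39. Of 21 Bcl2 family and death receptor genes, 11 were called higher and 1 lower. Pmaip1, the proapoptotic NOXA gene, was at 106 and 76.6 and then at 2508, 2491, 3802 and 3308, a rise of 5.03 ± 0.36. The survival gene Bcl2l1 rose by 1.78 ± 0.34. Bcl2 fell by 0.80 ± 0.27 (adjusted p = 0.034), a call lost without either day 0 library and without JL019-1, JL027-1 or JL027-2, and Fas (-0.42 ± 0.26) was not called.

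**Figure D3:**
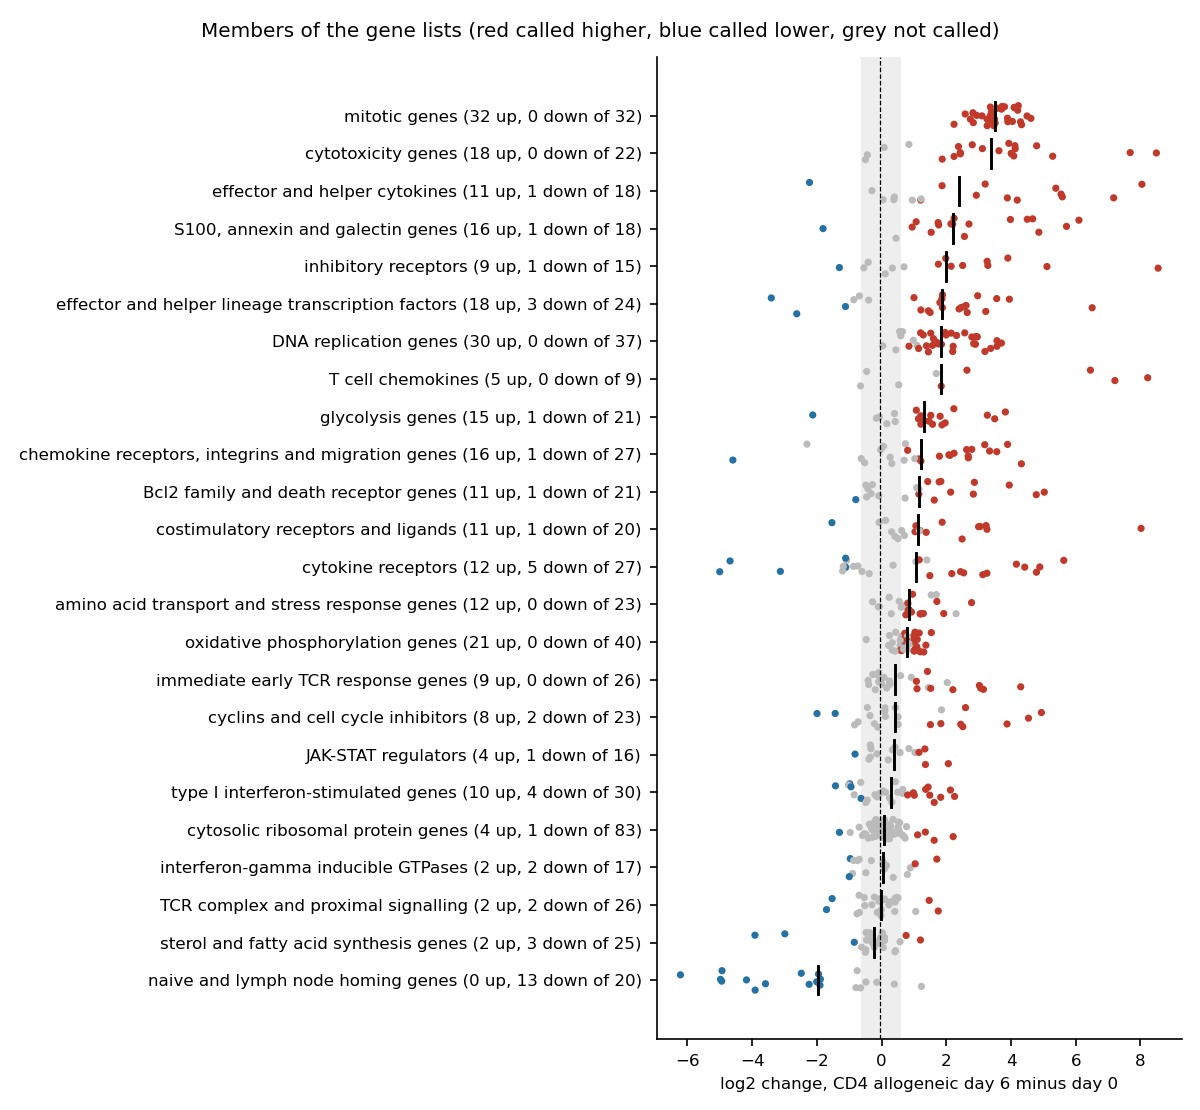
Each point is a gene of 1 of the 24 lists, placed by its log2 change from day 0 to allogeneic day 6, in red where called higher, in blue where called lower and in grey otherwise, with list medians as black bars. The grey band spans the quartiles of all genes, -0.60 to 0.57, and the mitotic list lies wholly to its right while the naive list is the only one with 0 members called higher and most called lower.

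Markers of other cells moved between the groups, and their part in the results above was not tested except where stated. The 12 B cell markers in the table summed to 37671 and 42601 at day 0 and to 10312 to 14221 after transfer, with 5 called lower (3 without either day 0 library) and 1 higher (Cd22). Ighm made up most of these sums, at 41511 and 36812 at day 0 and at 9240 to 12655 after transfer, and Cd79a was at 145 and 109 and then at 9.69 to 25.7. Of 5 plasma cell markers, 3 were called lower and none higher, while Sdc1 and Derl3 were not called (limma adjusted p = 0.11 and 0.051). The sum of the 5 was 24955 and 32178 at day 0 and 287 to 1704 after transfer. Jchain, which joins secreted antibodies, was at 8790 and 7059 and then at 109, 190, 17.4 and 130. Myeloid markers summed to 8443 and 9899 at day 0 and to 11894 to 19966 after transfer, with 4 of 14 called higher, Cd68, Itgam, S100a8 and S100a9, and none lower. Itgam was not called without either day 0 library. Csf1r, a defining gene of monocytes and macrophages, was at 44.5 to 51.9 at day 0 and at 4.95 to 25.9 after transfer and was not called (adjusted p = 0.078). S100a8 was at 15 and 47.4 and then at 4812, 2225, 5243 and 4148, and Lyz2 did not pass the test (0.75 ± 0.94). Red cell markers separated the prefixes within the allogeneic group, with sums of 2525 and 3365 at day 0, 731 at the lowest in the JL019 pair and 11263 at the highest in the JL027 pair. Of the NK cell markers, which summed to 579 and 604 at day 0 and to 8265 to 16025 after transfer, Gzma, also among the cytotoxicity genes, made up most of the later sum.

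Regulatory T-cell (Treg) markers split. Foxp3, the defining factor of Treg, was at 1145 and 978 at day 0 and at 579, 367, 337 and 470 after transfer. The groups did not overlap, but the change of -1.30 ± 0.74 was not called (adjusted p = 0.23). Of 14 Treg marker genes, 7 were called higher and 4 lower. Gpr83 was at 1299 and 1102 and then at 11.4 to 20.9, a fall of 6.14 ± 0.61, and Ikzf2, the Helios gene, fell by 1.86 ± 0.40. The markers that rose, such as Ctla4, Tnfrsf18, Tnfrsf9 and Tigit, are also expressed by activated conventional T cells.

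Markers of invariant NKT and other innate-like T cells fell in RNA and in the receptor reads. Zbtb16, which encodes their transcription factor PLZF, was at 99.8 and 93.9 at day 0 and at 11.1, 4.62, 4.49 and 2.37 after transfer, a change of -4.04 ± 0.96 (adjusted p = 0.0024). Of 7 markers in the table, 4 were called lower and none higher. Receptor chains that join TRAV11 to TRAJ18, the invariant alpha chain of NKT cells, made up 3.52% of the TRA reads of the day 0 library JL019 (95% Wilson interval 3.26 to 3.79%) and 3.44% of those of JL027 (3.20 to 3.70%). In the allogeneic libraries they were 5 of 20870 reads in JL019-1 (0.0240%), 1 of 16515 in JL019-2 (0.00606%) and 0 in JL027-1 and JL027-2. A count of 0, taken as allowing up to 3 reads, allows a share of up to 0.0174% in JL027-1 and 0.0221% in JL027-2, and the 95% Wilson upper limits there were 0.0222 and 0.0283%. PCR reads carry no molecular identifiers here, so intervals and limits cover counting error only. The 4 allogeneic shares were all below both day 0 shares, 0.00750 ± 0.0113% (SD, n = 4) against 3.48 ± 0.0512% (SD, n = 2), at p = 0.133 in an exact permutation test of 4 against 2 libraries, two-sided by doubling the smaller tail, for which this is the smallest value possible.

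At an equal number of receptor reads, fewer clonotypes were seen at day 6 than at day 0. Depth was set equal in reads and not in cells, and the part of cell number or receptor RNA per cell was not tested. At an equal depth of 10864 reads, the day 0 libraries held 8901 and 8959 TRB clonotypes (a V gene, a J gene and a CDR3) and the allogeneic libraries 3970, 3800, 3734 and 3578. Clonality, which is 0 for equal clones and 1 for a single clone, was 0.00984 and 0.00926 at day 0 and 0.110, 0.131, 0.121 and 0.130 after transfer. Its mean was 0.123 ± 0.00989 (SD, n = 4) in allogeneic hosts and 0.00955 ± 0.000407 (SD, n = 2) at day 0. The 10 largest clonotypes took 0.708 and 0.685% of TRB reads at day 0 and 9.53, 14.6, 10.9 and 13.1% after transfer. The groups did not overlap for any of the 3 measures, each at p = 0.133, the smallest that the exact permutation test allows. Leaving out JL027-1 or JL027-2, which share clonotypes, gave mean differences in clonality of 0.114 and 0.111 beside 0.113 with all. Clonotypes seen in a single read were 84.1 and 81.7% of TRB clonotypes at day 0 and 63.7 to 67.8% after transfer. Among clonotypes of at least 2 reads the allogeneic to day 0 ratio was 0.66 for clonotypes, beside 0.422 with all, and 7.35 for the 10 largest, beside 17.2. TRA gave the same directions, with a clonality of 0.152 against 0.0534, and the day 0 value of TRA includes the TRAV11 with TRAJ18 chain, which was the largest TRA clonotype of both day 0 libraries at 2.91 and 2.86% of reads. Of the 10 largest TRB clonotypes of an allogeneic library, 0 to 3 were seen in any other, the most by reads being 3 of JL019-2 that held 383 reads of JL027-1, among them its largest clonotype with 381. The exception was that JL027-2 held all 10 of JL027-1, with 148 reads in all, and JL027-1 held 4 of JL027-2.

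**Figure D4:**
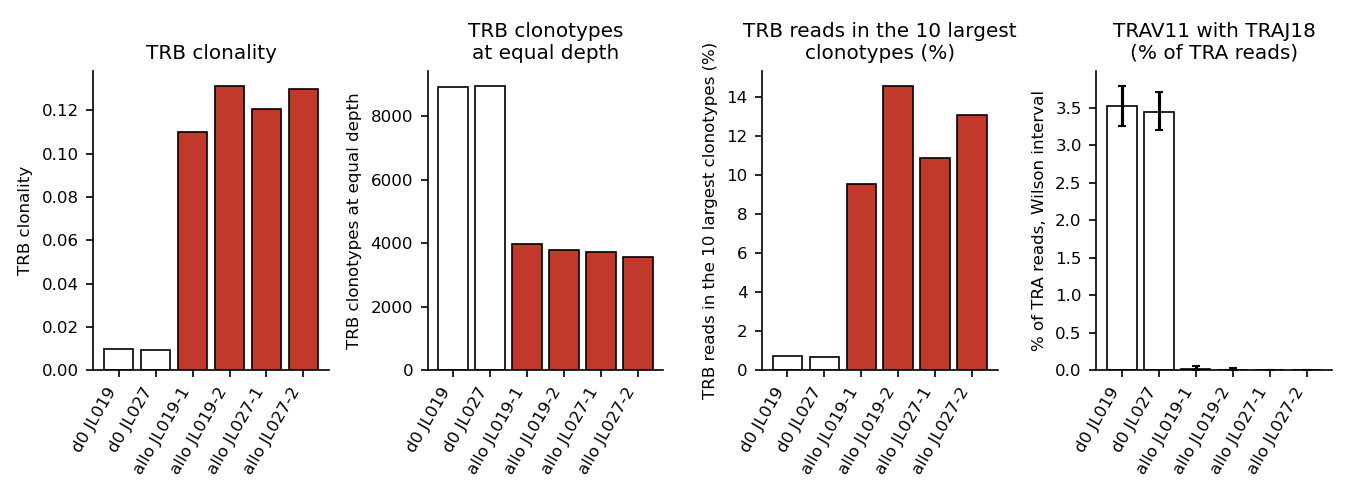
Bars give, for the 2 day 0 libraries (white) and the 4 allogeneic libraries (red), TRB clonality, TRB clonotypes at 10864 reads, the percent of TRB reads in the 10 largest clonotypes, and the percent of TRA reads joining TRAV11 to TRAJ18 with Wilson intervals where any such read was seen. Clonality is at most 0.00984 at day 0 and at least 0.110 after transfer, clonotypes fall from at least 8901 to at most 3970, and the TRAV11 with TRAJ18 share falls from at least 3.44% to at most 0.0240%.

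The change was also computed within each experiment prefix. All 4013 called genes had the same sign of change within JL019 and within JL027, beside 78.9% of all genes, although these calls were made on the pooled libraries. Neither prefix was fitted alone, since these changes came from a model over all 31 libraries with a mean for each group and prefix. Calls within a prefix are not counted, because each prefix holds 1 day 0 library. The test of the difference between prefixes called 0 genes (0% of 16741) in limma, with 211 at an unadjusted p under 0.05. With 1 day 0 library per prefix, that library was assumed to vary like the other groups.

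CD8 cells of the same design were the nearest comparison. They had 5097 called genes between day 0 and allogeneic day 6 (30.4%), of which 3009 were called in the same direction in CD4 cells. Those 3009 are 75% of the CD4 calls and 59.0% of the CD8 calls. The difference of the changes was called for 161 genes (0.962% of those tested), 113 with the higher change in CD4 cells and 48 with the lower. With the shared label of CD4 and CD8 libraries as a replicate block the count was 256, without the syngeneic library JL019-2 it was 373, and without the day 0 CD4 library JL019 or JL027 it was 69 or 71. With a higher change in CD4 cells, the 6 genes of lowest p were Ccr9, Itgae, Lrrc6, Scart1, Sytl3 and Mcoln2. Of the 27 chemokine receptor, integrin and migration genes, 7 differed, 5 with the higher and 2 with the lower change in CD4 cells. Ccr9 rose by 2.24 ± 0.38 in CD4 cells and fell by 3.29 in CD8 cells, a difference of 5.53 ± 0.54 (adjusted p = 1.1e-06). Itgae, the integrin chain that holds T cells in epithelia, was not called in CD4 cells at 0.70 ± 0.42 and changed by -5.39 in CD8 cells, from a mean of 2775 to 66.0. Lrrc6 was at 7.47 and 18.3 at day 0 and at 645 to 727 after transfer in CD4 cells, and changed by 0.01 in CD8 cells.

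With a lower change in CD4 cells, the 6 genes of lowest p were Il2ra, Pdcd1, Ly6c1, Nrp1, Ckb and Zbtb32. Il2ra, the alpha chain of the IL-2 receptor, was at 1981 and 1923 in CD4 cells at day 0 and rose by 1.49 in CD4 and 6.39 in CD8 cells. The difference was -4.89 ± 0.56 (adjusted p = 1.3e-05). Pdcd1, at a day 0 mean of 978 in CD4 and 139 in CD8 cells, rose by 3.28 in CD4 and 7.34 in CD8 cells, and Nrp1, Zbtb32, Tnfrsf4 and Ctla4 had the same pattern of a higher start and a smaller rise in CD4 cells. Ly6c1 fell by 4.28 ± 0.38 in CD4 cells, from 7432 and 6660 to 306 to 502, and changed by -0.04 in CD8 cells, where its mean was 104 at day 0 and 97.3 after transfer. Foxp3, not called in CD4 cells, rose in CD8 cells from a mean of 8.25 to 306, a difference of -6.19. In all, 20 genes were called in opposite directions in the 2 cell types. Besides Ccr9, Scart1 and Ckb, these included the transferrin receptor Tfrc, the kinase Pim2 and the actin regulator Scin, of which Tfrc and Scin were chosen after their values were seen. Of the 32 mitotic genes, 3 (Ccna2, Ccnb1 and Prc1, named after their values were seen) had a higher change in CD4 than in CD8 cells, by 1.62, 1.60 and 1.23, and started lower, with Ccna2 at a day 0 mean of 391 in CD4 and 2436 in CD8 cells.

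**Figure D5:**
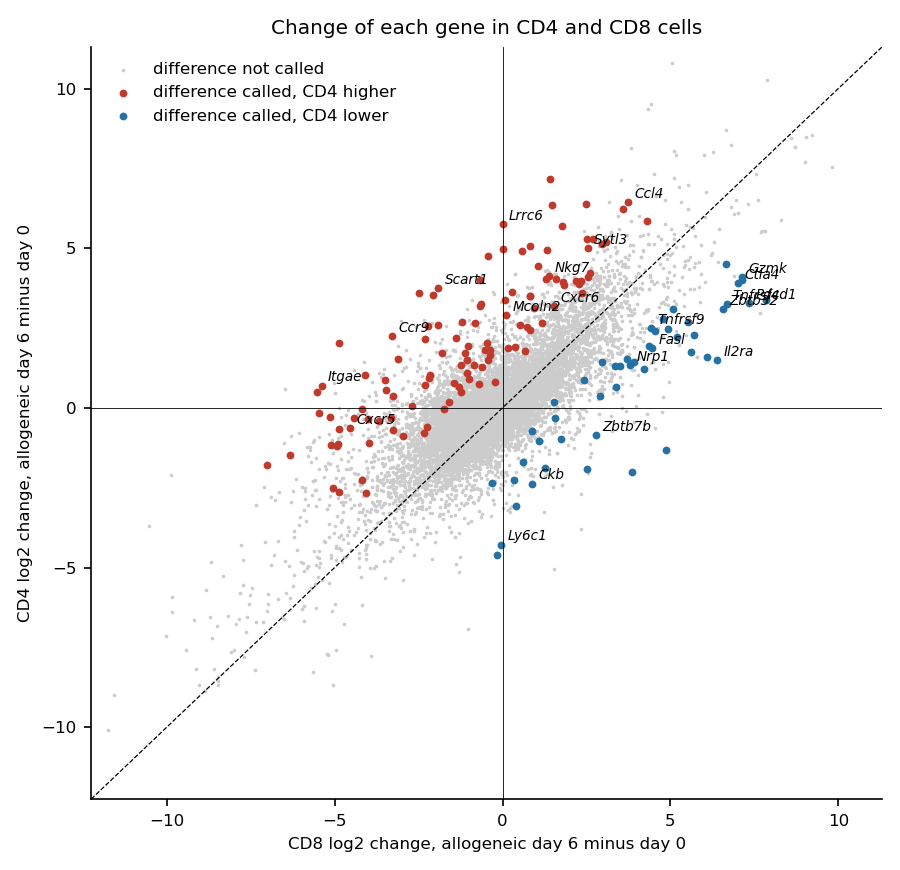
Each point is a gene, placed by its log2 change from day 0 to allogeneic day 6 in CD8 cells (x axis) and in CD4 cells (y axis), with the dashed line at equal change. The 113 red genes changed higher and the 48 blue genes lower in CD4 than in CD8 cells in the test of the difference, with Ccr9 in the upper left quadrant and Ly6c1 near 0 on the CD8 axis.

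The comparison with syngeneic hosts gave different counts for different lists, and no test between lists was made. It shares the 4 allogeneic libraries with the comparison above, so only its own values are given. Allogeneic CD4 cells were called higher than syngeneic CD4 cells for 1120 genes (6.69%) and lower for 1325 (7.91%). Without the syngeneic library JL019-2 these counts were 905 and 912, and 1101 genes in all were called with only these 2 groups in the model. Myeloid marker sums were 88917 and 95688 in the other 2 syngeneic libraries, above the 11894 to 19966 of the allogeneic libraries, and their part in these differences was not tested. Of the 32 mitotic genes, none was higher and 1 was lower than in syngeneic hosts, with a median difference of 0.04, and 2 were higher and 1 lower without that library, with a median of -0.01. Mki67 was at 6900, 4989 and 5167 in the syngeneic libraries, and the difference of -0.03 had a 95% interval from -0.57 to 0.51. Of the 37 replication genes, none was higher and 7 were lower (4 without JL019-2), with a median of -0.43. Of 22 cytotoxicity genes, 16 were higher in allogeneic hosts, 15 without JL019-2, and none was lower. Gzmb was at 1996, 2373 and 4272 in the syngeneic libraries and differed by 3.41 ± 0.27 (adjusted p = 5.1e-10). Of 15 inhibitory receptors, 9 were higher than in syngeneic hosts (8 without JL019-2), and of 24 lineage transcription factors 15 were (13 without it). Of 18 cytokines, 7 were higher and 3 lower with a median of 0.29, and 4 and 3 with a median of -0.24 without JL019-2. Of 9 chemokines, 1 was higher and 3 lower, and 1 and 0 without it. Ifng was at 970, 713 and 837 in the syngeneic libraries, which lie above both day 0 libraries and below all 4 allogeneic libraries. Ccl4 and Gzmk, which were far above day 0, were not called between allogeneic and syngeneic hosts, with differences of 0.40 (interval -0.31 to 1.10) and 0.21 (-0.42 to 0.84).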

How the data were processed

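RNA was measured in 31 libraries of sorted mouse T cells, and T-cell receptor chains in the same samples. Per the labels' protocols, cDNA was made with a SMARTer v4 kit and Nextera XT libraries, and receptor chains by nested PCR. The submitters' processing notes name FastQC 0.11.7, kallisto, DESeq2, GRCm38 and mm10, with no role or order. The RNA values are a signal: gene counts that the authors normalised and deposited, not whole numbers, so no count test was used, and whole reads could not be recovered from them. The receptor tables hold read counts per clonotype, deposited by the authors after removal of unproductive chains.

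From these, log2(value + 1) was fitted with limma 3.58.1 (R 4.3.3) as a group-means model over all 31 libraries in 10 groups, with trend and robust options. All 16741 genes passed the filter of a mean of at least 1, and p-values were adjusted over them by Benjamini-Hochberg, with calls at 0.05. Because of the added 1, fold changes of genes with low values are understated. Receptor measures are means over 20 draws to the lowest library total, compared by a two-sided exact permutation test (the smaller tail doubled) over the 15 arrangements of 4 and 2 libraries. The fits were tested on simulated data. Receptor tables were handled in Python 3.11.15 with pandas 2.3.3. Receptor depth was 10864 to 19911 TRB reads per library.

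The comparison and the gene lists were chosen with earlier results of these data known. Genes were named by rule: fixed list members, the 2 largest called rises and falls of each list, the 10 rising and 10 falling genes without overlap with the lowest p, the 6 genes each way with the lowest p in the CD4 and CD8 difference, and markers. Some of these genes are not reported here. Other settings tried were the pseudocount, the filter, scaling, weights, gene length, the groups in the model, blocks, and each library left out. Same-labelled CD4 and CD8 allogeneic libraries deviated together (r = 0.135, 0.183, 0.416 and 0.140), and 4 of 4 correlated best with their own label. These labels were therefore used as a replicate block, although the labels do not say that such a pair came from the same recipient. The block also joined the day 0 libraries of a prefix, although CD4 and CD8 cells did not deviate together there (r = -0.319). Day 0 and allogeneic CD4 libraries of a prefix did not deviate together (r = 0.057).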

Additional observations from a re-analysis of the deposited data

Results flagged for a closer look

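Over the 4 allogeneic CD4 libraries, 202 values were tested, of named genes and of the TRB measures. In 10 of these, all of genes, the highest or lowest library was set apart. Its gap to the next library, over the whole range, was above Dixon's 95% critical value for 4 values. Chance flags about 1 in 20. The ratio was 0.855 for Lef1 and 0.861 for Atp1b1, both highest in JL019-1, and 1 for Scd1, which was at 3.46 in JL019-1 and listed at 0 in the other 3. JL019-2 was the low library for Gzmk (0.920), Ctla4 (0.849) and Ldha (0.883). JL027-1 was low for Stat3 (0.938), at 5988 against 9531 to 9830 in the others, and for Fasn (0.886), and high for Gbp8 (0.8935). JL027-2 was low for Il18r1 (0.855).

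The change from day 0 to allogeneic day 6 differed between CD4 and CD8 cells in the limma test of the difference for 32 of the named genes and markers, on the log2 scale as the CD4 change minus the CD8 change. Il3, listed at 0 in both day 0 CD4 libraries, is left out. Among homing genes it was 5.53 for Ccr9, 6.08 for Itgae, 3.91 for Cxcr5, which marks follicular helper cells, and 1.67 for Cxcr6. Among activation and checkpoint genes it was -4.89 for Il2ra, -4.06 for Pdcd1, -3.10 for Ctla4, -3.42 for Tnfrsf4, -1.94 for Tnfrsf9, -2.47 for Nrp1 and -3.48 for Zbtb32. Among effector genes it was -3.05 for Gzmk, -2.58 for Fasl, 2.75 for Nkg7, 2.72 for Ccl4 and 2.45 for Sytl3. Zbtb7b, which encodes the CD4 lineage factor ThPOK, had -3.64, with a rise of 2.78 in CD8 cells and no call in CD4 cells. Among markers it was -6.19 for Foxp3, 3.68 for Ighd of B cells and 4.22 for Rhag of red cells. The others were -4.45 for Ccr6, 2.24 for Id3, 2.20 for Pim2, -2.32 for Ubash3b, 1.53 for Smpdl3b, 1.45 for Elovl6, 1.41 for Selenop, 5.74 for Lrrc6, 5.67 for Scart1, 2.79 for Mcoln2, -4.24 for Ly6c1 and -3.25 for Ckb.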

How the results depend on the processing

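No called change of a named gene turned direction under any setting, and the receptor measures, which cannot pass a test here, kept their sign. Medians of 5 lists against syngeneic hosts changed sign without the syngeneic library JL019-2, from 0.04 to -0.01 for mitotic genes, from 0.29 to -0.24 for cytokines, from 0.28 to -0.27 for interferon gamma GTPases, from -0.02 to 0.19 for oxidative phosphorylation and from -0.35 to 0.31 for B cell markers. With only the groups compared in the model, the calls between day 0 and allogeneic day 6 numbered 6636 (3790 higher, 2846 lower), and with array weights 7938 (4412 and 3526). Leaving out 1 of the 6 libraries gave 2178 to 3794 (1412 to 2321 higher, 706 to 1473 lower), with the lowest counts without a day 0 library. The prefix as a replicate block gave 4045 and the shared CD4 and CD8 label as a block 4008. Without the syngeneic library JL019-2 the count was 4521. Some named changes gained a call: 17 with only the groups compared, 16 with array weights, 3 with quantile normalisation and 5 without syngeneic JL019-2. Of 191 named changes, 25 lost their call without the day 0 library JL027 and 21 without JL019, and at most 10 did under any other setting. The calls for the CD4 and CD8 difference, 161 as reported, were 519 with only the groups compared, 256 with the shared label as a replicate block, 699 with array weights, 373 without the syngeneic library JL019-2 and 69 to 143 with 1 library left out. Those between allogeneic and syngeneic hosts were 1101 with only the groups compared and 3824 with array weights. The prefix difference gave 3, 2, 16, 1, 8, 3 and 7 calls with a pseudocount of 0.1, a pseudocount of 10, only the groups compared, quantile normalisation, neither trend nor robust options, array weights and no syngeneic JL019-2. It could not be fitted without a day 0 library or with prefix as a block. The cause of these differences was not tested beyond the samples and spread each setting uses. The receptor measures kept their direction with TRA, with clonotypes of at least 2 reads (the difference in clonotypes then -578 in place of -5159) and without a draw. The 2 day 0 libraries limit every test against day 0.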

Other observations

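The called changes that went in opposite directions in CD4 and CD8 cells were chosen after their values were seen. Tfrc, the transferrin receptor, rose from a mean of 744 to 1589 in CD4 cells and fell from 3685 to 1779 in CD8 cells, a difference of the log2 changes of 2.14. Scin, which encodes an actin-severing protein, rose by 2.16 ± 0.41 in CD4 cells and fell by 2.31 in CD8 cells. Pim2 rose by 1.36 ± 0.28 in CD4 and fell by 0.85 in CD8 cells.

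The hemoglobin gene Hba-a1 was at 107 and 88.1 in the JL019 pair and at 1328 and 1913 in the JL027 pair, against 281 and 118 at day 0, and its difference of change between prefixes was not called (adjusted p = 1 in limma).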
